A study of Mus musculus with 21 samples.

Results

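The sebaceous gland lipid genes are 10 genes that sebocytes, the lipid-filling cells of the sebaceous gland, use to make and store sebum: *Scd1*, *Scd3*, *Mc5r*, *Elovl3*, *Awat1*, *Awat2*, *Dgat2l6*, *Far2*, *Soat1* and *Fads2*. They were chosen by gene symbol from the 55491 genes of the skin count table, all 10 were found, and all 10 were among the 19101 genes with enough counts to be tested. RNA of 9 skin samples was sequenced: 3 from wild-type (WT) BALB/c mice, 2 from nonlesional (NL) skin and 4 from lesional (L) skin of *Ifnk* transgenic (TG) mice. All mice were 12 months old, all skin samples were labelled as not treated (NoTx), and all 9 libraries carry batch label 1. *Ifnk* TG mice carry the type I interferon gene *Ifnk* under the keratin 14 promoter, which drives expression in basal keratinocytes. The line was made on C57Bl/6 with a PiggyBac vector and backcrossed onto BALB/c. Its mice develop skin lesions at several body sites, per the study most often the face. Per the study's methods, NL skin was taken from the back and from areas comparable to the lesions. The labels do not give the body site, the sex or the mouse of a library, so NL and L samples may or may not share animals, and p-values measure the spread between these samples only.

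Sebocytes differentiate toward the gland centre, fill with lipid and burst, releasing sebum onto the hair shaft and skin. Stearoyl-CoA desaturases (*Scd1*, *Scd3*) place a double bond in saturated fatty acids, *Fads2* encodes a desaturase of the pathway to polyunsaturated fatty acids, and *Elovl3* lengthens long saturated and monounsaturated chains. *Far2* reduces fatty acyl-CoA to fatty alcohol, which the wax synthases encoded by *Awat1* and *Awat2* join to a fatty acid to form wax esters. *Dgat2l6* belongs to the same acyltransferase family, *Soat1* esterifies cholesterol, and *Mc5r* encodes the melanocortin receptor known for its role in sebum secretion.

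Libraries held 40499078 to 56511276 counts. The transgene checked the labels only weakly: *Ifnk* had 0 counts in all 3 WT libraries, 6 and 0 in NL replicates 2 and 3, and 14, 11, 5 and 8 in L replicates 4 to 7, so NL replicate 3 showed none of it at this depth (3 counts would be 7.16e-06% of that library). The RNA *Xist*, made from the inactive X chromosome of female cells, had 13 counts in NL replicate 3 and 6 in L replicate 6, and 3297 to 9353 in the other 7 libraries. Genes of the Y chromosome had at most 1 count in any of the 9. These 2 libraries therefore stand apart from the rest, and the calls lost without them are given beside each gene. L skin also differed from the other skin in tissue composition. Summed hair shaft and inner root sheath markers were 7.37 to 9.51 CPM (counts scaled to the size of the library) in WT, 9.12 and 23.2 in NL and 6259 to 23950 in L skin. Skeletal muscle markers were 21711 to 31041 CPM in WT and 21.5 to 6204 in L skin, adipocyte markers 15554 to 22830 and 1197 to 7098, and trunk position *Hox* genes 131 to 169 and 24.7 to 51.5. The part of these differences in the results below was not tested, and body site cannot be told apart from the lesion. In whole skin, more sebocytes and more RNA per sebocyte cannot be told apart either.

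The genes lie on 5 chromosomes in the GRCm38 build, with positions from GENCODE release M21. *Awat2* (chrX:100402221-100442717, minus strand), *Dgat2l6* (chrX:100524838-100546144, plus strand) and *Awat1* (chrX:100572251-100578205, plus strand) lie near each other on the X chromosome. *Scd3* (chr19:44203269-44244016, plus strand) and *Scd1* (chr19:44394455-44407879, minus strand) flank *Scd2* and *Scd4*, and *Elovl3* (chr19:46131897-46135694, plus strand) and *Fads2* (chr19:10062765-10101746, minus strand) lie on the same chromosome. *Far2* is at chr6:148047259-148182758 on the plus strand and *Soat1* at chr1:156424525-156474331 on the minus strand. All 10 are annotated as protein coding.

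*Scd3* fell in L skin compared to WT and *Scd1*, its close relative, did not pass the test, so the letters that tell their reads apart are shown. Their coding sequences, 1065 and 1077 bases long in the GENCODE transcripts, were identical at 974 of 1065 aligned bases (91.5%). Reads were 151 bases long, and 35 of the 3339 windows of that length in the *Scd3* transcript (1.05%) also occur in a transcript of another *Scd* gene. At 50 bases the share was 6.37%. The 90-base stretch within 1 coding exon where the pair differs most is shown 5′ to 3′ on the coding strand, with the 20 differing bases in capitals; it covers chr19:44403206-44403295 (minus strand) in *Scd1* and chr19:44234223-44234312 (plus strand) in *Scd3*.
Scd1: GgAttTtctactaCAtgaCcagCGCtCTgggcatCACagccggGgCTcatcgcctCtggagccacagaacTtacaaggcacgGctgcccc
Scd3: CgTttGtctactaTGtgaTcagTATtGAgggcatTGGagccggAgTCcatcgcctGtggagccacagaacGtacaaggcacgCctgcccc

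Of the X-linked acyltransferase genes, *Awat1* and *Dgat2l6* rose in L skin compared to WT and *Awat2* did not pass the test, and the RefSeq sequence (GRCm38.p6) of the 250 bases before each start is shown 5′ to 3′ on the strand of the gene. The windows are chrX:100571997-100572246 (plus strand) for *Awat1*, chrX:100442718-100442967 (minus strand) for *Awat2* and chrX:100524588-100524837 (plus strand) for *Dgat2l6*. Capitals mark letters that match a searched motif.
Awat1: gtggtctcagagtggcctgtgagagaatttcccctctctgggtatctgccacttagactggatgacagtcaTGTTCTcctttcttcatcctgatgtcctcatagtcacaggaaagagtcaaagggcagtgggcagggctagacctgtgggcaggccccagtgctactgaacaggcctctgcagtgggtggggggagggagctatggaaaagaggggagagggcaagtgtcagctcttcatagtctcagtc
Awat2: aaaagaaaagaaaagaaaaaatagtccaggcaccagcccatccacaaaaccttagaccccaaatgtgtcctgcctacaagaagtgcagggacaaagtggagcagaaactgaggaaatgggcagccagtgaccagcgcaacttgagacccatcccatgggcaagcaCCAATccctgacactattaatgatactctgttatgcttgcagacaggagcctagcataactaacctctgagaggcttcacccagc
Dgat2l6: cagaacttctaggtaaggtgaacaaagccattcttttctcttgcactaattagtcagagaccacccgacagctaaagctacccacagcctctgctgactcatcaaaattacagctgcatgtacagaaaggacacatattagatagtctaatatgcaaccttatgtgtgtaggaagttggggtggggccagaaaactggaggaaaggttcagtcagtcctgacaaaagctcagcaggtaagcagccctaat

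Both strands of these windows were searched for the letters of 5 motifs, and no match overlapped another. The motifs were the promoter box CCAAT, the TATA box TATAAA, the sterol regulatory element TCACNCCAC, the nuclear receptor half-site AGGTCA and the steroid hormone receptor half-site AGAACA. The *Awat1* window held 1 AGAACA on its minus strand, which 16.1% of 32851 RefSeq promoter windows also hold. The *Awat2* window held 1 CCAAT, found in 33.8% of windows, and the *Dgat2l6* window matched none of the 5 motifs. The other motifs occur in 12.4% (TATAAA), 1.05% (TCACNCCAC) and 14% (AGGTCA) of all windows. Promoter windows of 7 of the 10 genes were searched, and those of *Scd1*, *Elovl3* and *Mc5r* were not. No binding or chromatin was measured here.

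Compared to WT, 5 of the 10 genes rose in L skin, 1 fell and 4 did not pass the test. *Elovl3*, *Fads2*, *Dgat2l6*, *Awat1* and *Soat1* were higher and *Scd3* was lower (edgeR's quasi-likelihood test, Benjamini-Hochberg adjusted p under 0.05 over all tested genes). Of all tested genes, 23% were called higher and 20.2% lower in this comparison. The median log2 fold change of the 10 genes was 1.15, against 0.06 over all tested genes. Compared to NL skin, the same 5 genes were higher in L skin and none was lower, and 13.2% of all tested genes were called higher and 11.8% lower. None of the 10 was called between NL and WT skin. There, edgeR called no gene at all (0% higher and 0% lower), with 1465 genes and none of the 10 at an unadjusted p under 0.05, and DESeq2 called 80 genes and none of the 10. Libraries did not overlap between L and WT for 5 genes (4 higher and 1 lower), between L and NL for 7 (6 higher and 1 lower) and between NL and WT for none of the 10. Over all tested genes the share without overlap was 49.4%, 49.4% and 35%, so this count by itself sets the 10 genes little apart. The L against WT and L against NL comparisons share the 4 L libraries.

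**Figure D1:**
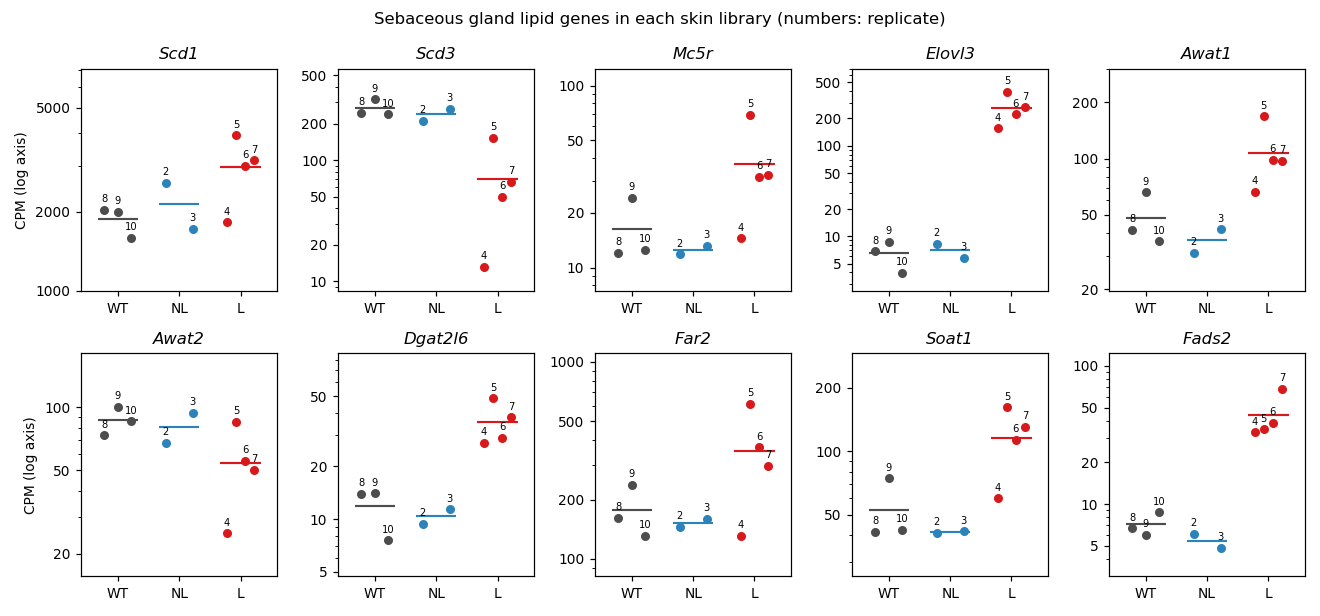
CPM of each of the 10 genes (log axis) in WT, NL and L skin, with 1 point per library labelled by its replicate number and a line at the group mean. *Elovl3*, *Fads2* and *Dgat2l6* lie above all WT and NL libraries in every L library, *Scd3* lies below them, and L replicate 4 is the lowest L library in all 10 panels.

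*Elovl3* showed the largest change of the 10. Its level was 6.84, 8.74 and 3.96 CPM in WT replicates 8, 9 and 10, 8.26 and 5.81 CPM in NL replicates 2 and 3, and 156, 395, 222 and 265 CPM in L replicates 4, 5, 6 and 7. The lowest L library was thus far above the highest library of the other skin. Means were 6.51 ± 2.41 CPM in WT (SD, n = 3), 7.03 ± 1.73 in NL (n = 2) and 260 ± 101 in L skin (n = 4). *Elovl3* was 39.8-fold higher in L than in WT skin (log2 fold change 5.32, SE 0.44, edgeR adjusted p = 0.000133) and 36.8-fold higher than in NL skin (log2 fold change 5.20, SE 0.53, edgeR adjusted p = 0.000936). NL and WT skin differed by 0.11 on the log2 scale, with a 95% confidence interval from -0.86 to 1.08.

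Of the 3 desaturase genes, *Fads2* rose, *Scd3* fell compared to WT and *Scd1* did not pass the test. *Fads2* was at 6.68, 5.96 and 8.73 CPM in WT, 6.08 and 4.81 in NL and 33.1, 34.8, 38.9 and 68.5 in L skin, in the same order of replicates. Every L library exceeded every other library, and L replicate 7 stood above the other 3. The rise was 6.15-fold against WT (log2 fold change 2.62, SE 0.30, edgeR adjusted p = 0.000374) and 8.04-fold against NL skin (3.01, SE 0.36, edgeR adjusted p = 0.0014). Without the 2 libraries with almost no *Xist*, the call against NL skin was lost (2.92, edgeR adjusted p = 0.055). Its neighbour and relative *Fads1*, a desaturase acting on another position of the chain, was at 43.2 to 63.1 CPM in WT and 45.9 to 68.1 in L skin (log2 fold change -0.01, 95% confidence interval from -0.39 to 0.38).

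*Scd3* was at 247, 317 and 239 CPM in WT, 211 and 266 in NL, and 13.3, 153, 49.6 and 66.4 in L skin. All 4 L libraries were below the lowest NL library, but they spread over an 11.5-fold range. *Scd3* was 3.80-fold lower in L than in WT skin (log2 fold change -1.93, SE 0.64, edgeR adjusted p = 0.0419), and the difference from NL skin did not pass the test (-1.76, SE 0.70, edgeR adjusted p = 0.102). DESeq2 did call *Scd3* lower against NL skin (adjusted p = 0.0245). The call against WT is at the edge of the threshold: it was lost in 7 of 9 fits that left out a library, with edgeR adjusted p from 0.0645 to 0.1 in these, and the log2 fold change there was -1.79 at the weakest. It was kept without L replicate 4 and without L replicate 5, and lost without both libraries with almost no *Xist* (edgeR adjusted p = 0.128).

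*Scd1*, by far the most abundant of the 10, was at 2033, 2005 and 1592 CPM in WT, 2585 and 1721 in NL and 1824, 3925, 2996 and 3152 in L skin. L replicates 5, 6 and 7 were above all others and replicate 4 was among the WT values. The difference from WT was 1.59-fold (log2 fold change 0.66, 95% confidence interval from 0.05 to 1.28, edgeR adjusted p = 0.0751) and was called without L replicate 4 (0.84, edgeR adjusted p = 0.0135) and by DESeq2 (adjusted p = 0.0399). *Scd2*, a member of the same family with a wider tissue range, rose from 77.8 to 102 CPM in WT to 181 to 437 CPM in L skin (2.88-fold, edgeR adjusted p = 0.00744). *Scd4* was at 0.24 to 0.94 CPM in WT and 0.61 to 3.13 in L skin. With the counts of all 4 *Scd* genes summed, the difference between L and WT skin was 0.57 on the log2 scale (SE 0.26, edgeR adjusted p = 0.111).

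**Figure D2:**
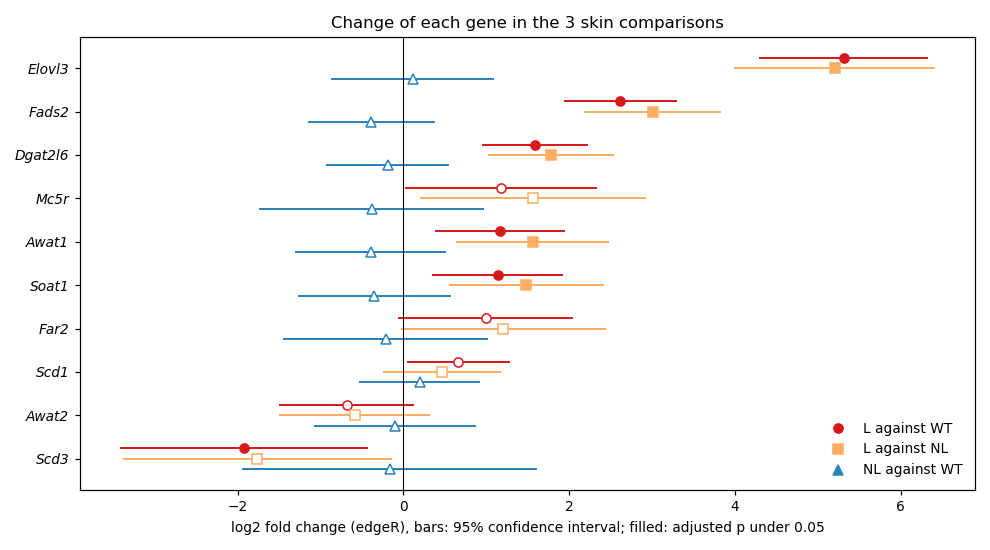
Log2 fold change of each gene (x axis) in the 3 comparisons, with its 95% confidence interval and filled symbols where the edgeR adjusted p is under 0.05. *Elovl3* at 5.32 and *Fads2* at 2.62 lead the rises against WT, *Scd3* at -1.93 is the only fall called, and every interval of NL against WT spans 0.

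Of the acyltransferase genes of the X chromosome, *Awat1* and *Dgat2l6* rose and *Awat2* did not pass the test. *Awat1* was at 41.7, 65.9 and 36.1 CPM in WT, 31.2 and 41.8 in NL and 66.5, 168, 98.6 and 97.3 in L skin. L replicate 4 lay just above WT replicate 9, so the groups were separated by a narrow margin. *Awat1* rose 2.25-fold against WT (log2 fold change 1.17, SE 0.34, edgeR adjusted p = 0.0229) and 2.95-fold against NL skin (1.56, SE 0.40, edgeR adjusted p = 0.024). Without WT replicate 8 or 10 the adjusted p against WT was 0.0777 or 0.0817, and without NL replicate 2 or 3 that against NL was 0.167 or 0.104. Both calls were lost without the pair of libraries with almost no *Xist* (edgeR adjusted p = 0.0618 and 0.148).

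*Awat2*, the other wax synthase, was at 73.6, 101 and 86 CPM in WT, 67.9 and 94.2 in NL and 25, 85.6, 55.5 and 50.4 in L skin. L replicate 5 lay within the WT range and the other 3 L libraries lay below it. The difference from WT was -0.68 on the log2 scale (95% confidence interval from -1.49 to 0.12, edgeR adjusted p = 0.149), and it passed the test only in the fit without L replicate 5 (-0.99, edgeR adjusted p = 0.031). *Dgat2l6* was at 13.9, 14 and 7.57 CPM in WT, 9.42 and 11.4 in NL and 27.2, 48.6, 29 and 37.8 in L skin. All L libraries were above all others, 3.01-fold over WT (log2 fold change 1.59, SE 0.28, edgeR adjusted p = 0.00241) and 3.43-fold over NL skin (1.78, SE 0.33, edgeR adjusted p = 0.00668). The call against NL skin was lost without NL replicate 2 or 3 (edgeR adjusted p = 0.0694 and 0.0537) and without both libraries with almost no *Xist* (edgeR adjusted p = 0.0819).

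*Soat1*, which makes cholesterol esters, was at 41.5, 74.6 and 42.4 CPM in WT, 41.1 and 41.9 in NL and 59.8, 161, 113 and 131 in L skin. L replicate 4 was below WT replicate 9, and all L libraries were above NL skin. *Soat1* rose 2.20-fold against WT (log2 fold change 1.14, SE 0.34, edgeR adjusted p = 0.0272) and 2.80-fold against NL skin (1.49, SE 0.40, edgeR adjusted p = 0.0299). Against WT the call was lost without WT replicate 8 or 10 or L replicate 5 or 7, with edgeR adjusted p from 0.0544 to 0.0938, and also with no filter on low counts (0.0567), with only the compared groups (0.0513) and without both libraries with almost no *Xist* (0.0812). Against NL skin it was lost without NL replicate 2 or 3 or L replicate 6 or 7, with edgeR adjusted p from 0.0504 to 0.16, and also with no filter (0.0562), with *Xist* as a covariate (0.0521) and without both libraries with almost no *Xist* (0.213).

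*Far2*, which supplies the alcohols of wax esters, was at 162, 237 and 131 CPM in WT, 146 and 159 in NL and 131, 613, 368 and 297 in L skin. L replicates 5, 6 and 7 were above all others, and replicate 4 was level with the lowest WT library. The difference from WT was 0.99 on the log2 scale (95% confidence interval from -0.05 to 2.04, edgeR adjusted p = 0.112), and without L replicate 4 it was 1.27 (edgeR adjusted p = 0.0135). The difference from NL skin was 1.21 (edgeR adjusted p = 0.133), and 1.48 without L replicate 4 (edgeR adjusted p = 0.0202). DESeq2 called *Far2* higher against NL (adjusted p = 0.0424) but not against WT. *Far1*, the fatty alcohol-forming relative found in most tissues, was at 43.8 to 50.5 CPM in WT and 59.7 to 81 CPM in L skin (1.44-fold, edgeR adjusted p = 0.00814).

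*Mc5r*, the receptor of the group, was at 12.1, 24.3 and 12.5 CPM in WT, 11.9 and 13.1 in NL and 14.5, 69.1, 31.7 and 32.5 in L skin. L replicates 5, 6 and 7 were above all WT and NL libraries, and replicate 4 was below WT replicate 9. *Mc5r* did not pass the test against WT (log2 fold change 1.18, SE 0.50, edgeR adjusted p = 0.0883) or against NL skin (1.56, SE 0.59, edgeR adjusted p = 0.0874). It passed in both without L replicate 4 (1.45 and 1.83, edgeR adjusted p = 0.0205 and 0.0232) and with DESeq2 (adjusted p = 0.0295 and 0.0121).

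Among the 4 L libraries, replicate 4 was the lowest for all 10 genes and replicate 5 the highest for 9, the exception being *Fads2*, highest in replicate 7. The range was narrowest for *Dgat2l6*, 1.79-fold, and widest for *Scd3*, 11.5-fold. Without L replicate 4, 8 of the 10 genes were called higher in L skin against WT. Leaving out the lowest library raises the L mean of every gene here, so this count is no separate support for a rise. That fit called 8028 of 18870 tested genes in either direction, against 8237 of 19101 with all libraries. Replicate 4 also had the highest summed neutrophil markers, 624 CPM against 67.9 to 147 in the other L libraries and 38.1 to 47.7 in WT and NL skin, the most skeletal muscle RNA of the L libraries (6204 CPM) and the fewest hair shaft markers (6259 CPM). Replicate 5 had the fewest adipocyte (1197 CPM) and skeletal muscle (21.5 CPM) markers. The part of these differences in the spread was not tested. The fit without NL replicate 3 and L replicate 6, the libraries with almost no *Xist*, left NL with a single library. That library was assumed to vary like the other groups. *Awat1*, *Soat1* and *Scd3* lost their calls against WT, with log2 fold changes of 1.20, 1.14 and -1.80 (1.17, 1.14 and -1.93 with all libraries). *Fads2*, *Dgat2l6*, *Awat1* and *Soat1* lost theirs against NL skin, at 2.92, 2.02, 1.84 and 1.53 (3.01, 1.78, 1.56 and 1.49 with all libraries). Over all tested genes, too, this fit called fewer in both comparisons, so the loss was not limited to the 10 genes.

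Ratios within a library, which need no scaling and were chosen after the values were seen, separated some pairs more tightly than levels did. The count of *Awat1* per count of *Awat2* was 0.57, 0.65 and 0.42 in WT, 0.46 and 0.44 in NL and 2.66, 1.97, 1.78 and 1.93 in L skin. The lowest L ratio was above the highest of the other skin, although *Awat1* and *Awat2* levels themselves varied 2.53-fold and 3.43-fold among L libraries. The ratio was 3.83-fold higher in L than in WT skin. With 4 against 3 libraries the exact two-sided permutation test cannot go below p = 0.0571, which is the value it gave. Because the pairs were picked with the values known, the p-values of the ratios are no separate support for a difference. The count of *Scd1* per count of *Scd3* was 8.22, 6.33 and 6.66 in WT, 12.2 and 6.47 in NL and 138, 25.7, 60.5 and 47.4 in L skin, again without overlap (8.03-fold against WT, exact permutation p = 0.0571). *Mc5r* per *Far2* was 0.07 to 0.1 in WT, 0.0813 and 0.0826 in NL and 0.0862 to 0.113 in L skin. L overlapped WT in this ratio (exact permutation p = 0.343) and lay just above NL without overlap (1.27-fold, exact permutation p = 0.133, the smallest that 4 against 2 libraries can give), while *Mc5r* and *Far2* levels varied 4.77-fold and 4.69-fold among the L libraries.

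**Figure D3:**
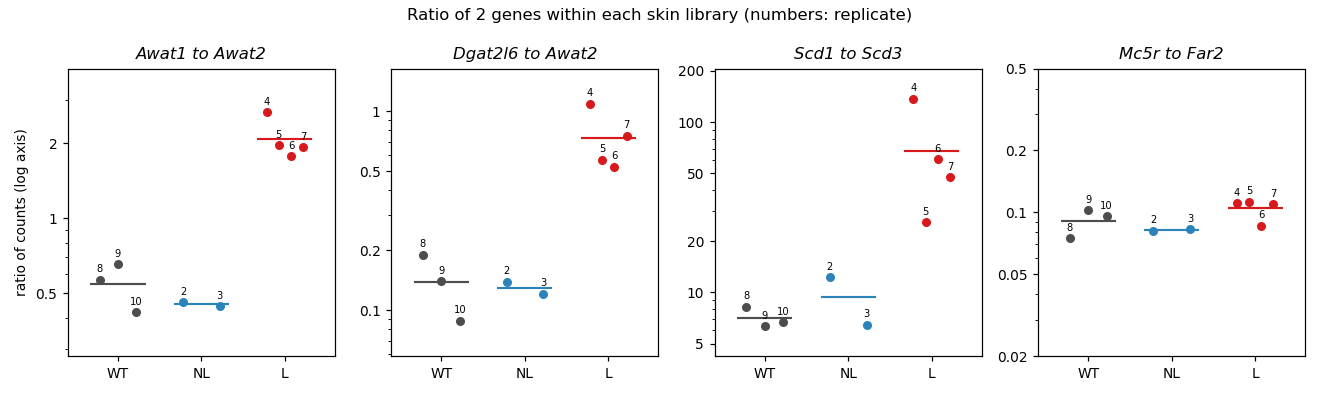
Ratio of the counts of 2 genes (log axis) in each skin library, labelled by replicate number, with a line at the group mean. *Awat1* to *Awat2* lies between 1.78 and 2.66 in L skin and at or below 0.65 in WT and NL skin, while *Mc5r* to *Far2* overlaps between L and WT.

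Scaled by exon length, the order of the genes changed between groups. In WT skin *Scd1* led with 384 ± 50.5 CPM per kilobase (SD, n = 3), followed by *Scd3* (75.3 ± 12), *Awat2* (40.8 ± 6.4), *Awat1* (34.5 ± 11.4) and *Far2* (24.2 ± 7.5). *Soat1*, *Mc5r*, *Elovl3*, *Dgat2l6* and *Fads2* followed at 5.4 to 2.16, and these low neighbours were within their spread of each other. In L skin *Scd1* was at 608 ± 177 CPM per kilobase (SD, n = 4), and *Elovl3*, eighth in WT, came second at 131 ± 51.1. *Awat1* (77.5 ± 31) and *Far2* (48.1 ± 27.4) were next and overlapped each other, and *Scd3* was sixth at 19.8 ± 16.6. With the length of the longest transcript in place of all exons, *Far2* moved to the third place in every group and the places of *Scd1*, *Elovl3* and *Scd3* were as before.

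The wider lipid pathways were described with 5 lists of other genes. Over all tested genes, 23% were called higher and 20.2% lower in L against WT, and 13.2% and 11.8% in L against NL. Of 13 genes of sebocyte differentiation, 8 rose and 1 fell in L skin compared to WT (median log2 fold change 0.76, against 0.06 over all tested genes), and compared to NL skin 6 rose and 1 fell. Without NL replicate 2 or NL replicate 3, 1 rose and 0 fell compared to NL. *Fabp5*, a fatty acid binding protein of keratinocytes and sebocytes, rose from 115 ± 23.2 CPM in WT (n = 3) to 1256 ± 211 in L skin (n = 4), a 10.9-fold change (edgeR adjusted p = 5.37e-05). *Fa2h*, which hydroxylates fatty acids, rose 4.60-fold (edgeR adjusted p = 0.00842) and the ceramide synthase gene *Cers4* 4.17-fold (edgeR adjusted p = 0.00378). The gene that fell was *Pparg*, a nuclear receptor needed for sebocytes and adipocytes alike, from 67.4 ± 20.3 to 29.5 ± 9.73 CPM (edgeR adjusted p = 0.0133).

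Sterol synthesis was the list with the highest share of genes that rose: 18 of 22 rose in L skin compared to WT and none fell (median log2 fold change 0.91), and 4 did not pass the test. *Hsd17b7*, which encodes an enzyme of cholesterol synthesis, was at 26.8 to 32.4 CPM in WT and 74.6 to 142 in L skin, a 3.31-fold rise (edgeR adjusted p = 0.000668). Against NL skin 9 of the 22 were higher and none lower, with 4 higher without NL replicate 2 and 1 without NL replicate 3. The count against WT was 14 to 19 over 21 alternative fits.

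Among 24 tested genes of fatty acid synthesis and elongation, 7 rose and 4 fell in L skin compared to WT (median log2 fold change 0.44), and 4 rose and 1 fell compared to NL. The counts against WT were near the shares over all tested genes (23% higher and 20.2% lower). The 4 that fell compared to WT became 1 without WT replicate 9 or L replicate 7 and 2 without WT replicate 8 or 10, the 7 that rose became 11 without L replicate 4, and the 4 that rose compared to NL became 1 without either NL library and 7 without L replicate 4. *Elovl4*, which makes the very long chains of skin ceramides, rose 4.07-fold (edgeR adjusted p = 0.00111), *Scd2* 2.88-fold (edgeR adjusted p = 0.00744) and the elongase gene *Elovl7* 2.81-fold (edgeR adjusted p = 0.000774). *Acsl1*, which activates fatty acids and is abundant in fat, fell from 1100 ± 327 to 405 ± 190 CPM (edgeR adjusted p = 0.0267), and the dehydratase genes *Hacd1* and *Hacd4* fell 2.32-fold and 2.25-fold (edgeR adjusted p = 0.000969 and 0.0219).

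The list of ester synthesis and lipid droplets had more genes lower than higher, with 2 of 18 genes higher and 9 lower compared to WT (median log2 fold change -1.12) and 2 higher and 5 lower compared to NL. Without WT replicate 8, 4 were lower compared to WT, and compared to NL 2 were lower without NL replicate 2, 0 without NL replicate 3, 3 without L replicate 7 and 9 without L replicate 5. *Plin5*, *Plin4* and *Lpin1*, a pair of lipid droplet coat genes and a phosphatidate phosphatase gene, fell 7.36-fold, 4.61-fold and 4.46-fold (edgeR adjusted p = 0.000566, 0.00919 and 0.00462). *Hilpda*, a lipid droplet protein induced by low oxygen, rose 3.03-fold (edgeR adjusted p = 0.000499), and *Far1* was the other gene that rose. *Dgat2*, the triglyceride-forming relative of *Awat1*, *Awat2* and *Dgat2l6*, fell 2.08-fold (edgeR adjusted p = 0.0217). Adipocyte markers moved with this list: 6 of 9 tested markers were lower in L skin against WT and none higher, and none of the 10 listed was at 0 in every library of a group. Their part in it was not tested.

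Among 13 tested regulators of lipid and melanocortin pathways, 4 were higher and 3 lower than in WT (median log2 fold change 0.05), and 2 higher and 4 lower than in NL. The counts against WT were near the shares over all tested genes (23% higher and 20.2% lower). Without WT replicate 9 or 10, 2 were higher than in WT, and without either NL library 1 was higher and 0 lower than in NL. *Mc1r*, the melanocortin receptor of pigment cells, had 3, 0 and 1 counts in WT, 0 and 2 in NL and 392, 368, 262 and 1216 in L skin (edgeR adjusted p = 0.000361 against WT). *Insig2*, a regulator of sterol sensing, rose 1.84-fold (edgeR adjusted p = 0.0237), and *Agrp*, a melanocortin antagonist, had 4 to 13 counts in WT and 15 to 45 in L skin (edgeR adjusted p = 0.0334). *Nr1h3*, which encodes a liver X receptor, fell 2.52-fold (edgeR adjusted p = 0.0143) and *Mlxipl*, a carbohydrate-responsive activator of fat synthesis genes, 6.04-fold (edgeR adjusted p = 0.00496). Between NL and WT skin no gene of the 5 lists was called.

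**Figure D4:**
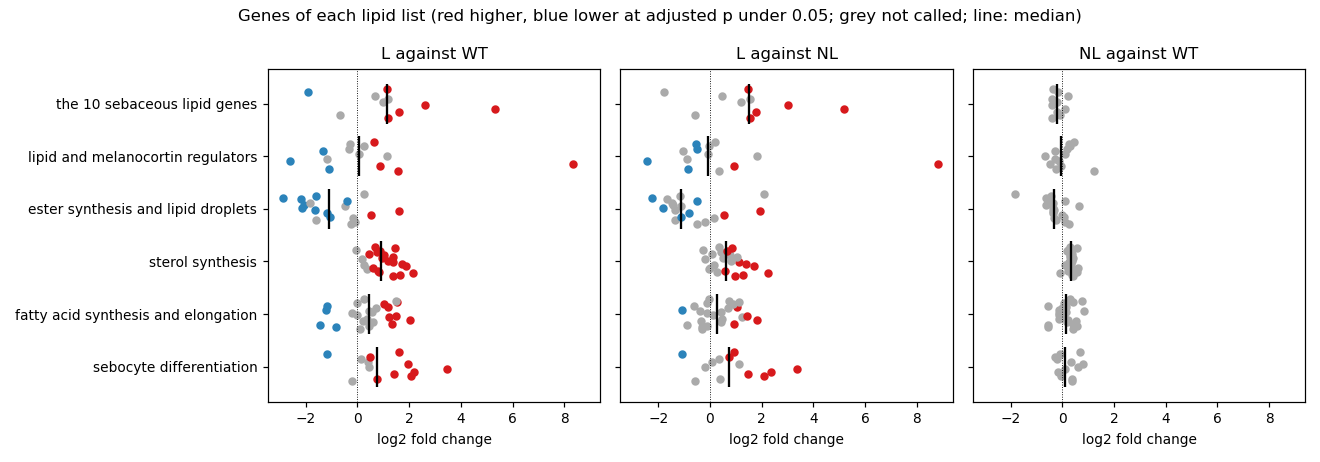
Log2 fold change (x axis) of every tested gene of 5 lipid lists and of the 10 sebaceous gland lipid genes in the 3 comparisons, red where higher and blue where lower at an edgeR adjusted p under 0.05, with a line at the list median. Against WT, sterol synthesis shows 18 higher and 0 lower genes, while ester synthesis and lipid droplets shows 2 higher and 9 lower.

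The genes with the most similar pattern were found by the root mean square (RMS) difference of log2 CPM, centred on each gene's mean, over the 9 skin libraries. *Mc5r*, *Far2*, *Soat1* and *Awat1* formed one group of neighbours: each had the other 3 among its 100 nearest of 19100 genes. *Pnpla5*, a lipase-family gene, was nearest to both *Mc5r* (RMS 0.12) and *Far2* (0.14). *Cyp1a1*, a target of the aryl hydrocarbon receptor, was nearest to *Soat1* (0.13), *Il13ra2* to *Awat1* (0.14), *Pafah2* to *Scd1* (0.12), *Rnf180* to *Fads2* (0.15), *Hilpda* to *Dgat2l6* (0.21) and *Vnn1* to *Awat2* (0.22). The nearest genes to *Scd3* and *Elovl3* were *Kcnmb1* at 0.41 and *Otop2* at 0.32. The RMS difference is not scaled to how much a gene varies, and *Elovl3* and *Scd3* varied widely. Their larger values therefore do not show that they lack genes of like pattern. *Scd1*, *Elovl3*, *Awat2* and *Fads2* had none of the other 9 genes among their 100 nearest.

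L skin exceeded WT and NL skin in all 11 tested hair shaft and inner root sheath markers, and of the 11 found in the table only *Krt34* was at 0 in every WT library. With keratin, hair, skeletal muscle and adipocyte genes left out before scaling, 5 of the 10 sebaceous gland lipid genes were called higher and 1 lower in L skin against WT, the same counts as with all genes. That fit still tested 18974 genes, and it does not adjust the 10 genes for the hair or gland content of a sample. Interfollicular epidermis markers were called higher in 4 of 8 and lower in none, with summed levels of 9371 to 11591 CPM in WT, 17111 and 19483 in NL and 8839 to 26155 in L skin. Stress keratin markers were higher in 4 of 4 (469 to 749 CPM in WT, 1757 to 5383 in L), neutrophil markers in 3 of 6 (38.3 to 47.7 and 67.9 to 624), T cell markers in 3 of 6 (28.9 to 40.5 and 29.8 to 58.5) and macrophage markers in none of 6 (381 to 971 and 229 to 656). Of the trunk position *Hox* genes 6 of 11 were lower, and of the skeletal muscle markers 2 of 7. Over all tested genes, 23% were called higher and 20.2% lower in L against WT.

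**Figure D5:**
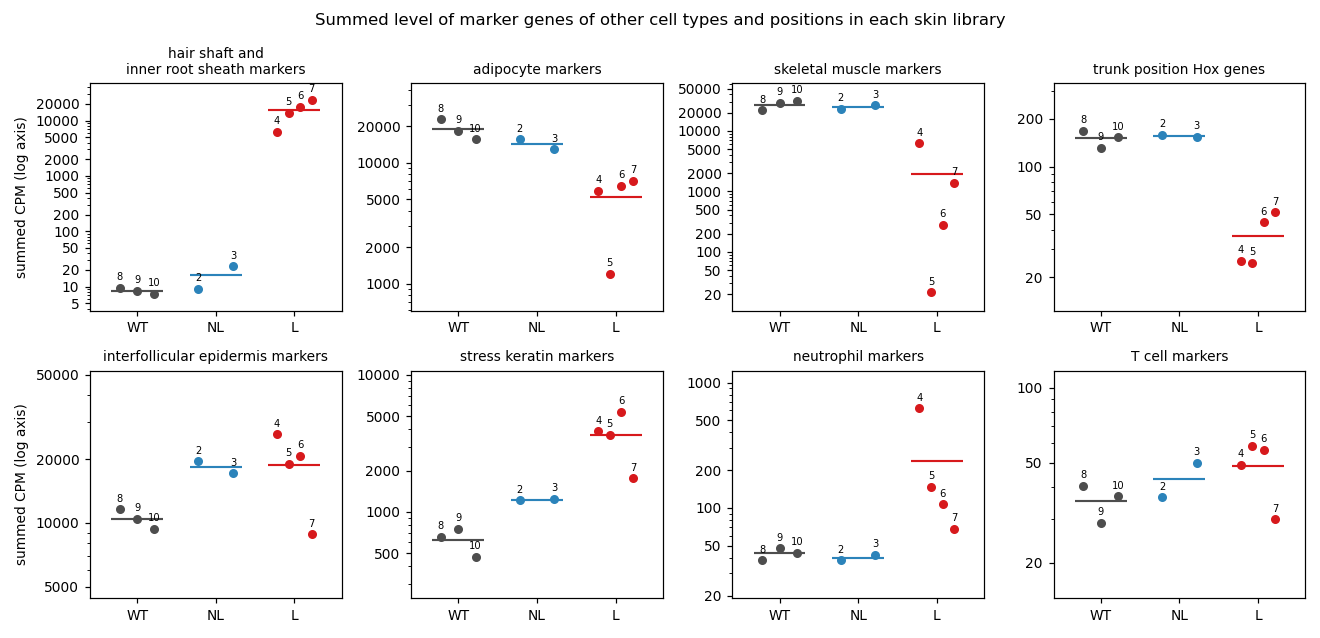
Summed CPM (log axis) of 8 marker lists in each skin library, labelled by replicate number, with a line at the group mean. Hair shaft and inner root sheath markers lie at 6259 CPM or more in L skin and at 23.2 or less elsewhere, and trunk position *Hox* genes at 51.5 or less in L skin and at 131 or more elsewhere.

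The same genes were also measured in inguinal lymph nodes, which hold no sebaceous glands. Node values are of lymph node cells and do not give the level in other cells of the skin. There were 12 node libraries, 3 each from WT and *Ifnk* TG mice without and with UVB, of an age the labels do not give. Per the study, UVB was given as repeated doses of 250 mJ/cm2 over weeks, and nodes were taken after a further observation period. Node libraries were normalised separately from skin, so no test was made between the tissues. *Elovl3*, *Awat1* and *Dgat2l6* had 0 counts in all 12, and *Mc5r* had at most 1. *Scd3* had 1 to 14 counts and *Awat2* 1 to 8, at most 0.41 and 0.24 CPM. *Far2* was at 1.69 to 5.12 CPM and *Fads2* at 2.61 to 8.46, while *Scd1* was at 260 to 658 and *Soat1* at 62.1 to 98.7. In nodes, *Scd1*, *Soat1* and *Fads2* thus had the highest median levels of the 10, and *Elovl3*, *Awat1*, *Dgat2l6* and *Mc5r* were at or near 0 at this depth.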

How the data were processed

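The authors trimmed 151-base paired reads of poly-A libraries with cutadapt 4.8, aligned them to GRCm38 with STAR 2.7.8a, and estimated counts per gene with RSEM 1.3.3. These expected counts were deposited with no scaling for depth and were rounded to whole numbers here. RSEM assigns reads shared between paralogs by likelihood. The annotation release is not given in the sources used here. Groups were taken from the labels, and lymph nodes were used for levels only.

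The 9 skin libraries were fitted together in R 4.3.3 with edgeR 4.0.16: filterByExpr with groups (10 counts in enough libraries, 15 in total), TMM scaling, robust quasi-likelihood fit and F-test, with Benjamini-Hochberg adjustment over 19101 genes and a threshold of 0.05. CPM are counts scaled to the TMM-adjusted library size, and standard errors come from the F statistic. The pipeline was tested on simulated data with 200 changed genes. Many more, 8237, were called in L against WT, so the simulation does not check the tests at that share of changed genes. For likeness, log2 CPM used a prior count of 2. The detection floor was set at 3 counts, or 5.31e-06% to 7.41e-06% of the skin totals, and covers counting error only. The coding sequences of *Scd1* and *Scd3* from GENCODE M21 transcripts were aligned with Biopython 1.88. RefSeq promoters and windows of the *Scd* transcripts were searched by matching letters.

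The 10 genes, the pathway and marker lists, the tests and the alternatives were chosen with earlier results of these data known. From each pathway list the text names up to 3 genes with the largest rise and 3 with the largest fall in L against WT among those called and without overlap, relatives of the 10 genes, and the nearest genes by pattern. Some genes that this rule names are not reported here. Alternatives were DESeq2 1.42.0, 2 other scalings, other filters, fits of 2 groups at a time, non-robust estimation, *Xist* as a covariate, keratin, hair, skeletal muscle and adipocyte genes left out, *Scd1* to *Scd4* summed and each library left out in turn. Dropping both libraries with almost no *Xist*, and scaling by total counts alone, were added after the data were seen.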

Additional observations from a re-analysis of the deposited data

Results flagged for a closer look

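The *Fads2* level in L skin was marked because 1 of the 4 libraries lay far from the others. Replicate 7 was at 68.5 CPM, and replicates 4, 5 and 6 at 33.1, 34.8 and 38.9. The gap to the nearest library was 0.836 of the whole range, above Dixon's limit for 4 values, which chance passes in about 1 of 20 groups, and 10 genes were looked at. Without replicate 7 the *Fads2* rise against WT was still called (log2 fold change 2.32, edgeR adjusted p = 0.000184).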

How the results depend on the processing

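No paired analysis was possible because the labels do not give the mouse of a library. Leaving out 1 library at a time gave 3 to 8 genes higher and 0 to 2 lower for L against WT (5 and 1 with all libraries), 2 to 7 higher and 0 to 1 lower for L against NL (5 and 0), and none for NL against WT. Without both libraries with almost no *Xist*, fewer of the 10 genes were called against WT and against NL, and fewer of all tested genes. The single lower gene against WT, *Scd3*, was not called without a filter, with only the compared groups, or with the *Xist* covariate (0 in each). DESeq2 called 7 of the 10 genes higher against WT, and 1, *Scd3*, lower against NL. With the *Scd* genes summed, *Scd3* was not tested on its own, so 0 genes were lower by construction. *Elovl3*, *Fads2* and *Dgat2l6* were called against WT in all 21 alternatives, *Awat1* in 18 and *Soat1* in 14, where *Scd3* was called in 9 of 20. The sign of each of the 10 genes held in every alternative of L against WT and of L against NL. It reversed only in NL against WT, when 1 library was left out: log2 fold changes ranged from -0.12 to 0.43 for *Scd1* (negative without NL replicate 2), -0.56 to 0.015 for *Mc5r* and -0.39 to 0.054 for *Far2* (positive without WT replicate 9), -0.16 to 0.38 for *Elovl3* (-0.15 without WT replicate 10, -0.16 without NL replicate 2), and -0.38 to 0.12 for *Awat2* (0.02 without WT replicate 9, 0.12 without NL replicate 2). Scaling by total counts moved the median of all genes for L against WT from 0.06 to 0.17 on the log2 scale, where 6 genes were higher (*Scd1* added, edgeR adjusted p = 0.0498) and 1 lower. Lost calls in smaller fits come with fewer libraries; other causes were not tested. Over all alternatives of L against WT, higher genes numbered 6 to 8 (sebocyte differentiation), 14 to 19 (sterol synthesis), 5 to 11 (fatty acid) and 2 to 5 (regulators), and lower genes 4 to 10 (ester and droplet), 1 to 4 (fatty acid) and 3 to 6 (regulators, 6 with DESeq2). In L against NL, higher genes numbered 1 to 7 (sebocyte differentiation), 0 to 13 (sterol synthesis) and 0 to 7 (fatty acid), and lower genes 0 to 9 (ester and droplet) and 0 to 5 (regulators), and leaving out either NL library left that group with 1 library assumed to vary like the others.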
